A study of Mus musculus with 4 samples.

Results

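The genes described here are 9 core members of the NRF2 pathway: Gclc, Gclm, Gsr, Nqo1, Srxn1, Osgin1, Ephx1, Nfe2l2 and Keap1. They were taken by symbol from the array annotation, and a probe counted only if it was annotated to that gene alone. All 9 were measured, by 16 of the 15478 probes, and they stand among 9285 named genes. The mean over a gene's probes is its value. Gclc, Gclm, Gsr, Osgin1 and Ephx1 had 1 probe each, Nqo1 and Nfe2l2 had 2, Srxn1 had 3 and Keap1 had 4.

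The study set livers of 4 mouse lines against livers of wild-type littermates. All animals were males of B6/FVB strain, aged 7 to 8 weeks and fed a selenium-sufficient diet. Trsp is the gene of the selenocysteine tRNA, the adaptor through which selenocysteine enters every selenoprotein. A34 mice carried 2 copies of a Trsp transgene in which T34 was changed to A34. G37H mice carried 16 copies and G37L mice 2 copies of a transgene in which A37 was changed to G37. DTrsp mice lacked Trsp in the liver. Whether the transgenic livers kept their own Trsp is not given in the labels, nor is how it was removed in the DTrsp livers. No probe used here was named for Trsp, so the deletion itself was not checked. Wild-type RNA carried the dye Cy3 and mutant RNA Cy5, and the values are read here as log2 of mutant over wild type. That direction is likely rather than stated. Turned round, it would change the sign of every value below.

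Each line has a single averaged value per probe, over 4 animals in A34, G37L and DTrsp and over 3 in G37H. The values of single animals were not used here, so no SD between animals, no interval and no p-value can be given, and a difference described below has no replicate check. A gene was counted as called where its log2 ratio was 1 or more (2-fold) above or below 0. The only spread that can be given is between probes of one gene. Over the 2373 genes with 2 to 4 probes, its pooled SD was 0.35 in A34, 0.39 in G37H, 0.37 in G37L and 0.49 in DTrsp, on the log2 scale. Column medians over all genes were 0.07 in A34, -0.11 in G37H, -0.11 in G37L and 0.16 in DTrsp. The table holds ratios and no signal levels, so hepatocyte markers can be compared with wild type but cannot show the tissue's identity. In whole liver, a change in the share of a cell type and a change in RNA per cell cannot be told apart.

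NRF2, the product of Nfe2l2, is a transcription factor that is held in the cytoplasm and passed to the proteasome by KEAP1. When electrophiles or oxidants modify KEAP1, NRF2 builds up, enters the nucleus and, paired with a small MAF protein, binds antioxidant response elements near its target genes. Its targets in liver make and recycle glutathione, reduce quinones, repair oxidised peroxiredoxins and open epoxides. Several selenoproteins, thioredoxin reductases and glutathione peroxidases among them, serve the same redox systems.

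The core of the antioxidant response element is written here as TGACNNNGC. The promoter windows below are from RefSeq on build GRCm38.p6, each 300 bases long, from 250 bases before the transcript start to 50 after it. Windows were found for 7 of the 9 genes and not for Gclc and Gsr. The core, searched on both strands, was in 3 of these 7 windows (Gclm, Srxn1 and Nfe2l2), against 12.4% of all 32851 windows. The full form TGACTCAGC was in 0 of the 7 and in 0.454% of all windows. A sister form, TGAGTCAGC, was searched after the windows had been read. It was in 2 of the 7 (Srxn1 and Osgin1), against 0.414% of all windows, which is no independent comparison after that choice. Of 59 windows of other NRF2 targets, 25.4% held the core, 6.78% the full form and 1.69% the sister form. No match in the 7 windows overlapped another. The 4 windows with a match are shown so that each match can be read in place. Among genes with a match, Gclm, Srxn1 and Osgin1 were at least 2-fold higher in DTrsp and Nfe2l2 was not, and among the 3 without one, Nqo1 and Ephx1 were at least 2-fold higher there and Keap1 was not. Capitals mark the matches, as they read on the strand of the gene.
Gclm promoter, chr3:122245307-122245606, plus strand: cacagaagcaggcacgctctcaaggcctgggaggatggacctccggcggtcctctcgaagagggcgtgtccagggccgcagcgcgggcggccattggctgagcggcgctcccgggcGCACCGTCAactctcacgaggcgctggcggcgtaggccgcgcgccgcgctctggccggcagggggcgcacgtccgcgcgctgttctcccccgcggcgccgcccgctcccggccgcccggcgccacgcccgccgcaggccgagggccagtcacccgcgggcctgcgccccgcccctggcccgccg
Srxn1 promoter, chr2:152105274-152105573, plus strand: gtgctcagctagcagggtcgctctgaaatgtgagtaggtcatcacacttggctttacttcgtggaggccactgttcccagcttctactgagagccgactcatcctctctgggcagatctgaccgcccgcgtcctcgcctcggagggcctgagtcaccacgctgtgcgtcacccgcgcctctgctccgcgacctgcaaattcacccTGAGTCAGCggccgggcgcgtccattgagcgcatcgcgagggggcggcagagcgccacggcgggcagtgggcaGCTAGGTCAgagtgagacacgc
Osgin1 promoter, chr8:119436897-119437196, plus strand: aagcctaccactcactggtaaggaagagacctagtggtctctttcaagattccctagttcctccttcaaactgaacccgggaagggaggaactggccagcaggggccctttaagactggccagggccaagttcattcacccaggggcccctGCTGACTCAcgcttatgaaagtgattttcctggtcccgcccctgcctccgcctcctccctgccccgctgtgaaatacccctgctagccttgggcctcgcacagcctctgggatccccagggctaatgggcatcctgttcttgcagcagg
Nfe2l2 promoter, chr2:75704614-75704913, minus strand: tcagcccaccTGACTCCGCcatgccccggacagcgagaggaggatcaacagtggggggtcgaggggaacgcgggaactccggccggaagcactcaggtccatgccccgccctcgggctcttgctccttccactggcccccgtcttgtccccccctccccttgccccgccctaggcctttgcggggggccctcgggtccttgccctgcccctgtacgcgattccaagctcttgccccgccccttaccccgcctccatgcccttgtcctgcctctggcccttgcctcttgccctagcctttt
The Gclm match lay on the opposite strand, 134 bases before the start. Srxn1 had TGAGTCAGC 45 bases before the start and a core match on the opposite strand at base 29 after it. In Osgin1 the match was on the opposite strand, 99 bases before the start, and in Nfe2l2 it was 240 bases before the start. A match of letters is a description and does not show that a factor binds there. Elements outside these windows were not searched.

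In DTrsp liver the 7 enzyme and effector genes of the set were all at least 2-fold higher than in wild type. The 2 regulators, Nfe2l2 and Keap1, lay close to 0 as deposited. Thus 7 of 9 genes were called higher and 0 lower, where 3.27% of all genes were called higher and 1.62% lower. The median of the 9 was 1.28, against 0.16 over all genes. After each column was centred on its median, 5 of the 9 stayed called higher, against 1.85% of all genes, and 0 were called lower, against 2.79%. Nqo1 and Srxn1 then stood just under the threshold, at 0.98 and 0.99. Centred on 39 hepatocyte markers and housekeeping genes, whose median was 0.56 in DTrsp, 4 stayed called (Gclc, Gsr, Osgin1 and Ephx1), against 0.679% of all genes.

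Glutathione synthesis was represented by both subunits of glutamate-cysteine ligase, the enzyme of the first and rate-limiting step. Gclc encodes the catalytic subunit. Its log2 ratio in DTrsp was 2.46, a 5.49-fold higher level, and 13 of 9285 genes were at or above it. Gclm encodes the modifier subunit, which raises the catalytic subunit's affinity for glutamate. Its log2 ratio was 1.28, or 2.43-fold, with 1.35% of genes at or above it. The catalytic subunit thus lay farther above wild type than the modifier. Gss, the glutathione synthetase of the second step, had a log2 ratio of 0.31.

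Glutathione reductase, encoded by Gsr, returns oxidised glutathione to its reduced form at the expense of NADPH. In DTrsp its log2 ratio was 1.69, or 3.23-fold, and 48 genes were at or above it. Pgd, an NADPH-producing enzyme of the pentose phosphate pathway, was at 1.52.

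Nqo1 encodes the quinone reductase that carries quinones to hydroquinones by a transfer of 2 electrons. Its 2 probes read 1.06 and 1.23 in DTrsp, a gene mean of 1.14 (2.21-fold). These probes differed by less than the pooled probe spread. Its paralogue Nqo2 was at 0.07.

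Srxn1 encodes sulfiredoxin, which restores over-oxidised peroxiredoxins. Its 3 probes read 1.21, 0.66 and 1.59 in DTrsp, a mean of 1.15 (2.23-fold). All 3 lay above 0, but 1 of them was below the 2-fold line. Its substrate gene Prdx1 was at 0.88.

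Osgin1, an oxidative stress-induced growth inhibitor, was at 1.67 (3.18-fold), with 51 genes at or above it. Ephx1 encodes microsomal epoxide hydrolase, which opens reactive epoxides to diols, and was at 1.69 (3.23-fold), with 47 genes at or above it. Ephx2, the soluble epoxide hydrolase, was at 0.42. The values of Gclc, Gclm, Gsr, Osgin1 and Ephx1 in DTrsp each ended in a 4-decimal step divided by 4, as the mean of 4 arrays can.

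The regulators did not share the height of the enzymes. Nfe2l2 had probes at 0.10 and 0.13 in DTrsp, a mean of 0.12. The Nfe2l2 mean became -0.04 after centring on the column median and -0.45 after centring on hepatocyte and housekeeping genes. Both of its DTrsp values ended in a step divided by 3, so they rest on fewer than 4 arrays. Keap1 had 4 probes that disagreed in sign: 2 lay above 0, at 0.53 and 0.31, and 2 below, at -0.60 and -0.47. Their SD was 0.56, and the gene mean of -0.06 has no settled direction. After centring on hepatocyte and housekeeping genes that mean was -0.62.

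**Figure D1:**
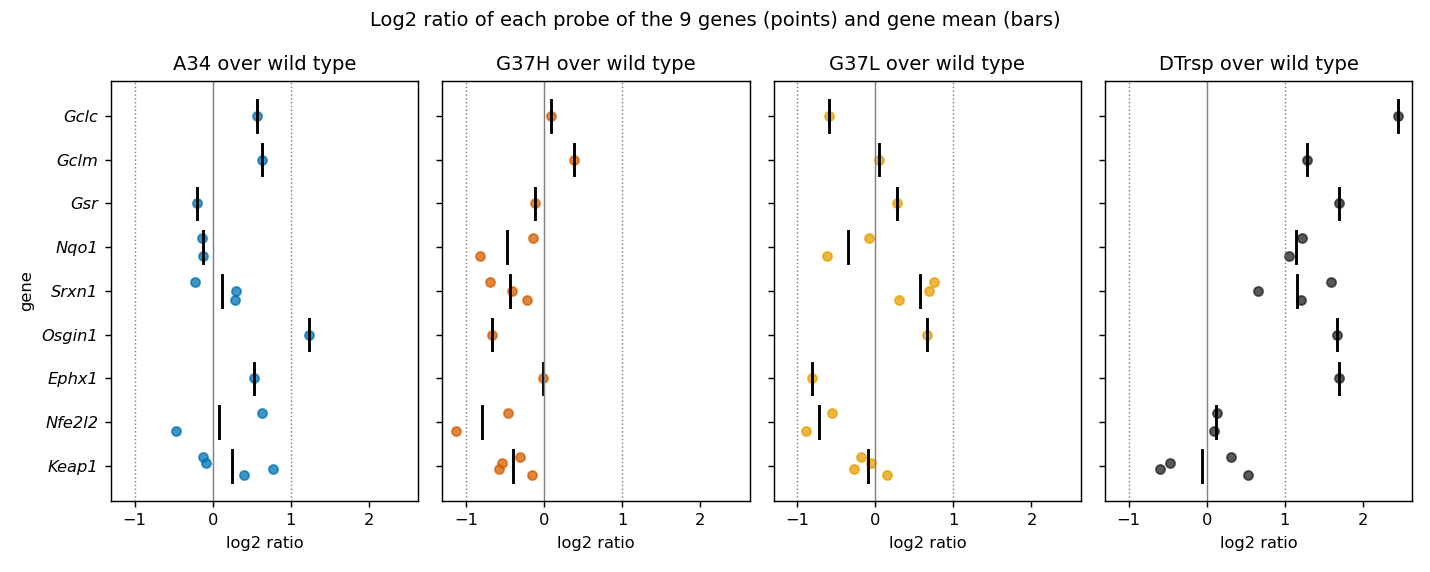
Each point is the deposited log2 ratio of 1 probe over wild type (x axis) for the 9 genes (y axis), in A34, G37H, G37L and DTrsp; black bars are gene means and dotted lines mark 2-fold. In DTrsp the 7 enzyme and effector genes have means between 1.14 and 2.46, Nfe2l2 stands at 0.12, and the 4 Keap1 probes lie on both sides of 0.

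Other genes of the pathway in DTrsp were described through lists, with the 9 genes left out of each. Of 43 measured other NRF2 targets, 23 (53.5%) were called higher and 0 lower, against 3.27% and 1.62% of all genes. Their median was 1.15. Haem oxygenase 1, encoded by Hmox1, was the highest at 4.03. Next came Gstm3 at 3.46 and Gsta4 at 3.04, both glutathione transferases, and then Ces1g, a carboxylesterase, at 2.88. Txnrd1, a selenoprotein and NRF2 target that reduces thioredoxin, was at 0.71. Me1 and Tkt, which also feed NADPH and the pentose phosphate pathway, were chosen after their values were seen and stood at 1.65 and 1.34.

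Genes around the glutathione cycle stood nearer to all genes than the 9 did. Their median in DTrsp was 0.48, and of 29 measured 5 (17.2%) were called higher and 0 lower, against 3.27% and 1.62% of all genes. The 5 were Pgd, the glutathione transferases Gstt1 at 1.52 and Gsto1 at 1.09, the taurine-pathway decarboxylase Csad at 1.33 and glutaredoxin Glrx at 1.05. Glrx was chosen after its value was seen. Pgd is also listed among the other NRF2 targets, so its call is counted in both lists. Of 26 genes for quinone, carbonyl and epoxide handling, 3 (11.5%) were called higher and 0 lower, against the same shares of all genes. Their median was 0.45. The 3 were the carbonyl reductase Cbr1 at 1.32, the aldehyde reductase Akr1a1 at 1.23 and the aldehyde dehydrogenase Aldh1a1 at 1.13. Cbr1 too is listed among the other NRF2 targets.

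The partners and regulators of KEAP1 and NRF2 had a median of 0.31 in DTrsp, and 0 of 17 measured were called in either direction. Of all genes 3.27% were called higher and 1.62% lower. The highest regulator was Sqstm1, whose product p62 binds KEAP1, at 0.85. Sqstm1 is also listed among the other NRF2 targets. Mafk, a small MAF partner of NRF2, was at 0.81, and Maff, another, at -0.80. Mafg was at 0.15. Cul3, the scaffold of the ubiquitin ligase that KEAP1 serves, was at 0.65, and Bach1, a repressor that competes for the same elements, at 0.69.

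Cell type markers were read beside these values. In DTrsp, 25 hepatocyte markers had a median of 0.57, ranging from -0.67 to 0.83, with 0 called. Among 15 markers of Kupffer cells and macrophages the median was -0.09, and Cd163 was the 1 called higher, at 1.02. That was 6.67%, where 3.27% of all genes were called higher. The 14 endothelial and stellate markers had a median of 0.27 and a highest value of 0.98. The 5 measured lymphocyte markers had a median of 0.57 and a highest value of 0.81, and the 3 measured cholangiocyte and progenitor markers (Krt7, Krt8 and Sox9) lay between 0.15 and 0.43. The 14 reference housekeeping genes had a median of 0.54. The lowest of the 7 enzyme and effector genes, Nqo1 at 1.14, was above every one of these markers and housekeeping genes in DTrsp.

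**Figure D2:**
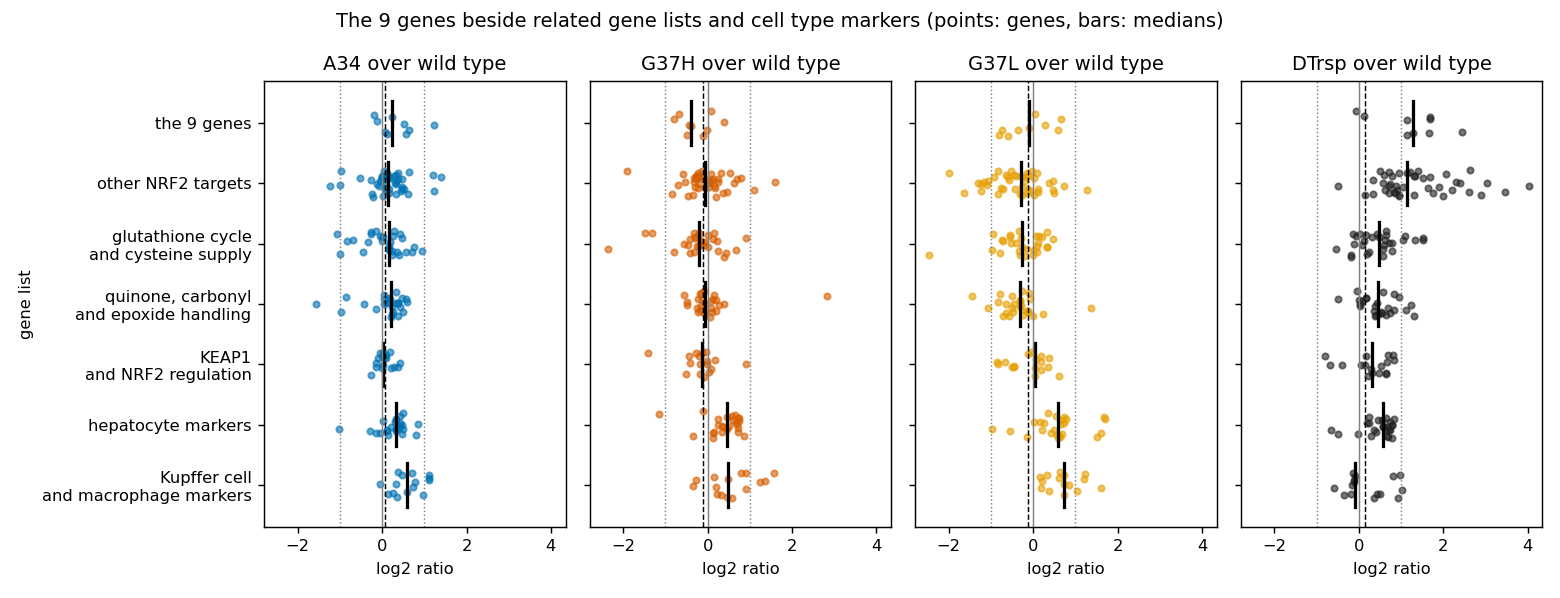
Points are genes and black bars medians of the log2 ratio over wild type (x axis) for the 9 genes, 4 related lists and 2 sets of cell type markers (y axis), in A34, G37H, G37L and DTrsp; the dashed line is the median of all genes and dotted lines mark 2-fold. In DTrsp the 9 genes (median 1.28) and the other NRF2 targets (median 1.15) stand to the right of hepatocyte markers (median 0.57).

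In each transgenic line 0 or 1 of the 9 genes was called in a direction. Over 9 genes such counts cannot be set apart from the shares of all genes. In A34, 1 of 9 was called higher, where 1.4% of all genes were, and 0 were called lower, where 0.452% were. In G37H, 0 were called higher or lower, against 2.78% and 3.1% of all genes. In G37L, 0 were called higher or lower as well, against 2.51% and 3.96% of all genes. Medians of the 9 were 0.24 in A34, -0.40 in G37H and -0.09 in G37L.

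The 2 ligase subunits stood in the same order across these lines. Gclc was at 0.56 in A34, 0.09 in G37H and -0.60 in G37L. Gclm was at 0.63 in A34, 0.38 in G37H and 0.04 in G37L. For both genes A34 was the highest of the 3 and G37L the lowest. For Gclm neighbouring lines differed by less than the pooled probe spread, which is not a spread between animals. Gss was at 0.47 in A34, -0.33 in G37H and -0.19 in G37L.

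Gsr was at -0.20 in A34, -0.12 in G37H and 0.28 in G37L. Nqo1 had probes at -0.12 and -0.14 in A34, at -0.82 and -0.14 in G37H, and at -0.63 and -0.08 in G37L. All 6 of these Nqo1 values were below 0 as deposited, and only those in A34 lay close together. The G37L probe nearest to 0 would lie above it once the column was centred on its median of -0.11. The Nqo1 means were -0.13, -0.48 and -0.35 in A34, G37H and G37L.

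Srxn1 took opposite signs in G37H and G37L. Its 3 probes read -0.22, -0.41 and -0.70 in G37H, and 0.30, 0.68 and 0.74 in G37L. The means were -0.44 in G37H and 0.58 in G37L. The G37H probe at -0.41 ended in a step divided by 2, so it rests on fewer than 3 arrays. The other G37H probes ended on a whole step, from which the number of arrays cannot be read. In A34 the probes read 0.29, 0.30 and -0.23, a mean of 0.12.

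Osgin1 behaved in the same way on its single probe, at -0.67 in G37H and 0.66 in G37L. In A34 it was at 1.23 (2.34-fold), the 1 call in that line, with 0.635% of genes at or above it. It fell under the threshold, to 0.93, when A34 was centred on hepatocyte and housekeeping genes. The numbers of arrays behind the G37H and G37L values of Osgin1 cannot be read from their decimals, which end on a whole step.

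Ephx1 was at 0.52 in A34, -0.01 in G37H and -0.81 in G37L. Its G37L value was the lowest of the 9 genes in that line, with 7.45% of all genes at or below it.

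Nfe2l2 was the lowest of the 9 in G37H. Its probes read -1.13 and -0.46 there, a mean of -0.79, and 6.28% of all genes were at or below that. The probe at -1.13 ended in a step divided by 2, so it rests on fewer than 3 arrays. In G37L its probes read -0.89 and -0.56, a mean of -0.73. In A34 they read -0.47 and 0.63, on both sides of 0, with an SD of 0.77 that exceeds the pooled probe spread. Keap1 had all 4 probes below 0 in G37H, from -0.57 to -0.15, and a mean of -0.40. The median of all genes there was -0.11, and 24.1% of them were at or below the Keap1 mean. In G37L 3 of its 4 probes were below 0, with a mean of -0.09, and in A34 2 of 4 were, with a mean of 0.24.

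**Figure D3:**
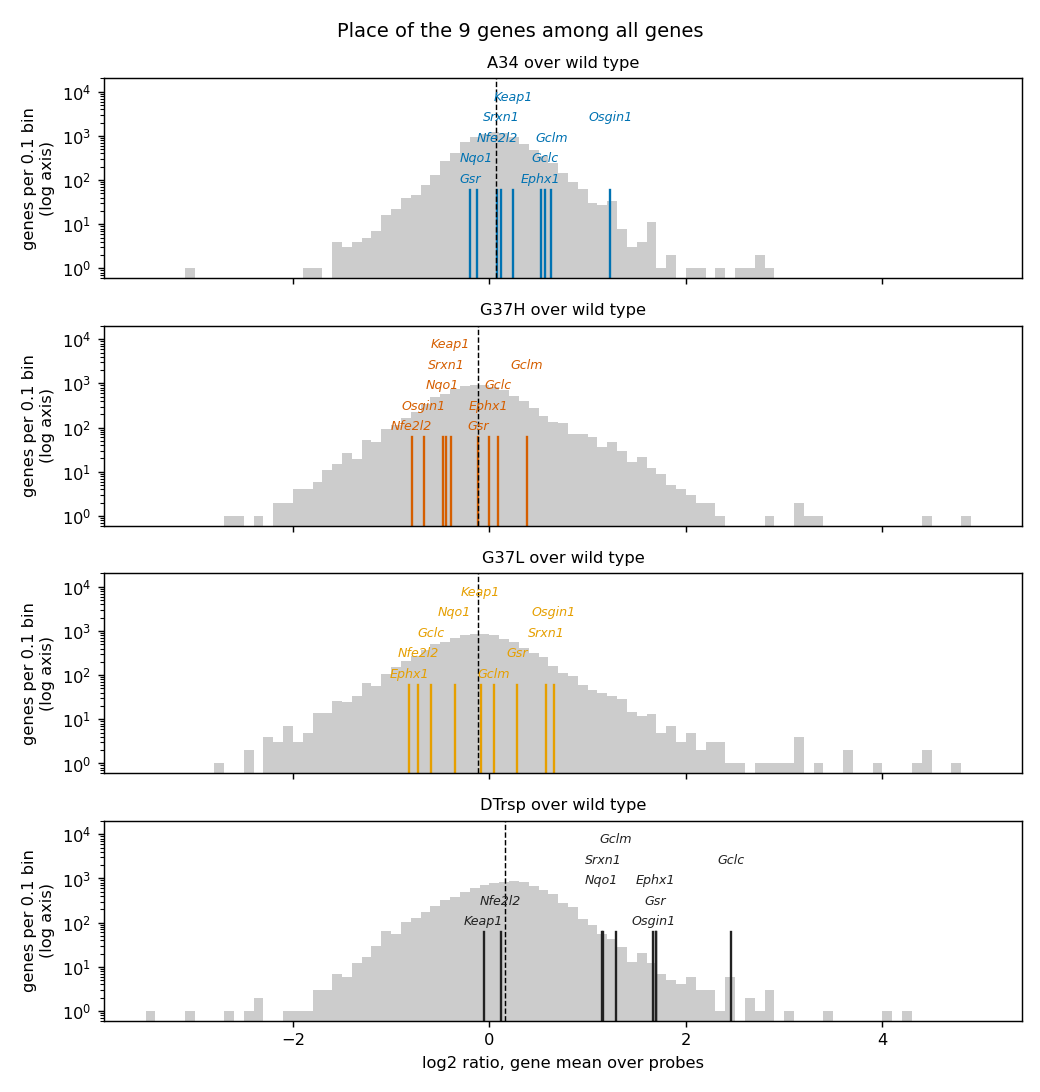
Grey bars count all 9285 genes by log2 ratio over wild type in bins of 0.1 (log count axis), in A34, G37H, G37L and DTrsp from top to bottom; coloured ticks mark the 9 genes and the dashed line the median of all genes. Only Osgin1 in A34, at 1.23, lies beyond 2-fold in the transgenic lines, while in DTrsp Gclc at 2.46 stands in the upper tail.

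Of 43 other NRF2 targets, 3 were called higher and 1 lower in A34, 2 higher and 1 lower in G37H, and 1 higher and 8 lower in G37L. As shares these were 6.98% higher and 2.33% lower in A34, where 1.4% and 0.452% of all genes were. In G37H they were 4.65% and 2.33%, against 2.78% and 3.1% of all genes, and in G37L 2.33% and 18.6%, against 2.51% and 3.96%. Their medians were 0.14, -0.06 and -0.28 in A34, G37H and G37L. The largest values in A34 were the glucuronosyltransferase Ugt1a6a at 1.39, Ces1g at 1.24, the fatty acid transporter Cd36 at -1.23 and the cytochrome Cyp2a5 at 1.22. G37H had Cd36 at -1.92, Ces1g at 1.59, Hmox1 at 1.09 and the glutathione transferase Gstm2 at -0.85. G37L had Cyp2a5 at -2.0, Cd36 at -1.63, the glutathione transferase Gsta1 at -1.31 and Hmox1 at 1.27. Txnrd1 was at -0.07 in A34, -0.31 in G37H and -0.17 in G37L.

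Among genes of the glutathione cycle and cysteine supply, the lowest value in each transgenic line belonged to Cth, the transsulfuration enzyme that releases cysteine. Cth was at -1.07 in A34, -2.35 in G37H and -2.47 in G37L, against 0.17 in DTrsp. Cbs, the enzyme before it, was at 0.71 in A34, -1.32 in G37H and -0.71 in G37L. Csad was at -0.06 in A34, -1.48 in G37H and -0.97 in G37L. Over the 29 measured genes of the glutathione cycle and cysteine supply, 1 was called lower in A34, 3 in G37H and 1 in G37L. These were 3.45%, 10.3% and 3.45%, where 0.452%, 3.1% and 3.96% of all genes were called lower. In each of the 3 lines 0 were called higher, where 1.4%, 2.78% and 2.51% of all genes were.

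Among the 17 regulators, 0 were called in A34 or G37L. Of all genes 1.4% were called higher and 0.452% lower in A34, and 2.51% and 3.96% in G37L. In G37H 1 regulator (5.88%) was called lower, against 3.1% of all genes, Bach1 at -1.41. Bach1 was at 0.01 in A34 and -0.66 in G37L. Mafg was at 0.28 in A34, -0.41 in G37H and -0.45 in G37L, and Cul3 at 0.05, -0.20 and -0.45 in the same lines. Of the 26 quinone, carbonyl and epoxide genes, 1 was called lower in A34, the xanthine dehydrogenase Xdh at -1.56. That was 3.85%, against 0.452% of all genes. In G37H 1 was called higher, the cytochrome Cyp2b10 at 2.84 (3.85%, against 2.78% of all genes). In G37L Cyp2b10 was the 1 called higher, at 1.37, and 2 were called lower, the aldehyde dehydrogenase Aldh3a2 at -1.45 and Nqo2 at -1.07. These were 3.85% higher and 7.69% lower, against 2.51% and 3.96% of all genes.

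Macrophage markers were higher in all 3 transgenic lines than in DTrsp by their medians. The 15 markers had medians of 0.60 in A34, 0.48 in G37H and 0.72 in G37L, against -0.09 in DTrsp. Called higher were 3 in A34, 3 in G37H and 4 in G37L (20%, 20% and 26.7%). Of all genes 1.4%, 2.78% and 2.51% were. Cd163 and Timd4 went the other way in all 3 lines, at 1.02 and 0.92 in DTrsp. They were at 0.35 and -0.06 in A34, 0.15 and -0.29 in G37H, and 0.17 and 0.61 in G37L. Other markers went the other way in some lines only. Clec4f was at 0.97 in DTrsp, above 0.60 in A34 and 0.91 in G37H. Cd5l was at 0.44 in DTrsp, above 0.33 in A34 and 0.33 in G37H. Adgre1 was at 0.51 in DTrsp, above 0.37 in A34, and Marco at -0.12, above -0.35 in G37H. In G37L Clec4f, Cd5l, Adgre1 and Marco were each above their DTrsp values. Hepatocyte markers had medians of 0.34 in A34, 0.47 in G37H and 0.58 in G37L. In G37L 4 of these 25 (16%) were called higher and 0 lower, where 2.51% and 3.96% of all genes were. The 4 were Hpx at 1.71, Fgg at 1.68, Fga at 1.61 and Fgb at 1.51, all genes of plasma proteins. In A34 and in G37H 0 hepatocyte markers were called higher, where 1.4% and 2.78% of all genes were. In each of them 1 (4%) was called lower, G6pc, at -1.02 in A34 and -1.15 in G37H. Of all genes 0.452% and 3.1% were called lower there. The immunoglobulin gene Ighm, 1 of the 5 measured lymphocyte markers, was at 2.67 in A34, -0.68 in G37H and -1.04 in G37L. The 5 had medians of -0.01 in A34, -0.40 in G37H and -0.67 in G37L. Igkc, the other immunoglobulin gene listed, was at -0.15 in A34. Of the 5, 1 was called higher in A34 and 1 lower in G37L, both Ighm, against 1.4% and 3.96% of all genes. Of the 14 endothelial and stellate markers, 0 were called in A34, and 1 was called lower in each of G37H and G37L. That was 7.14% in each, against 3.1% and 3.96% of all genes. The part of all these markers in the values of the 9 genes was not tested.

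Setting the lines against each other asked whether carriers of a mutant tRNA gene differed from the knockout. Each line was measured against wild type in a column of its own, and it is not given whether columns share wild-type animals. By their gene means, the 7 enzyme and effector genes were lower in every transgenic line than in DTrsp. Their differences ran from -1.89 to -0.44 for A34 minus DTrsp, from -2.37 to -0.90 for G37H minus DTrsp and from -3.06 to -0.58 for G37L minus DTrsp. The medians over all genes were -0.11, -0.29 and -0.28 in the same comparisons. Of the 9 genes, 5 were at least 2-fold lower in A34 than in DTrsp, where 4.09% of all genes were, and 0 at least 2-fold higher, where 4.48% were. In G37H 6 were lower, against 8.93% of all genes, and 0 higher, against 4.26%. In G37L 6 were lower, against 10.1% of all genes, and 0 higher, against 3.96%. Less the median of all genes, a step added after the values were seen, 4 stayed at least 2-fold lower in A34, against 2.93% of all genes, 6 in G37H, against 3.83%, and 4 in G37L, against 4.68%. The call lost in A34 was Srxn1, at -0.93, whose 3 probe differences as deposited ran from -1.82 to -0.36. Those lost in G37L were Gclm at -0.96 and Osgin1 at -0.73. The DTrsp column, high for these genes, is common to the 3 differences, so they are not independent of each other.

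Gclc had the widest difference in each of the 3, with Gsr level with it at -1.89 in A34. It was at 0.56 in A34 against 2.46 in DTrsp, a difference of -1.89. In G37H it was at 0.09, a difference of -2.37, and in G37L at -0.60, a difference of -3.06, an 8.32-fold lower ratio with 0.151% of genes at or below it. Gclm differed less, by -0.65, -0.90 and -1.24 for A34, G37H and G37L minus DTrsp. The widths of the Srxn1 differences also varied, at -1.04, -1.60 and -0.58 for the same comparisons. In G37L minus DTrsp its probe differences ran from -0.91 to 0.02, on both sides of 0. Osgin1 was at 1.23 in A34 against 1.67 in DTrsp, a difference of -0.44 with 23.3% of genes at or below it, and so stood apart from Gclc and Gsr. Nfe2l2 differed by -0.04, -0.91 and -0.84, and Keap1 by 0.30, -0.34 and -0.03.

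**Figure D4:**
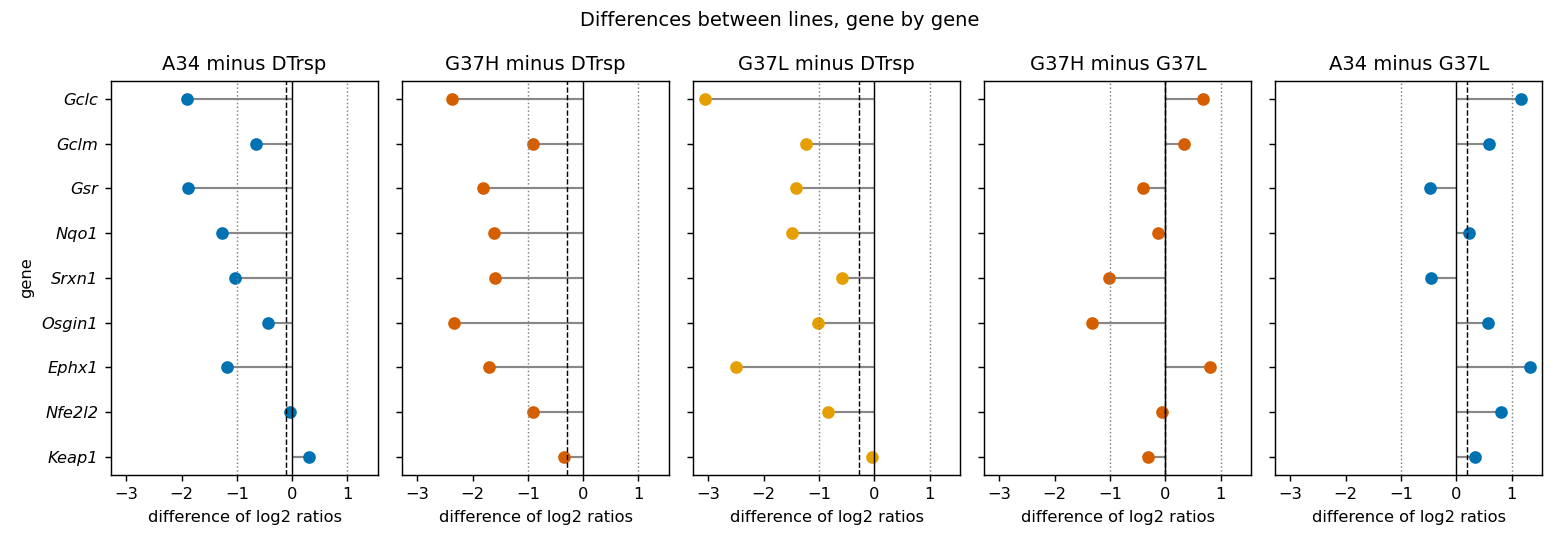
Each point is the difference of log2 ratios between a pair of lines (x axis) for 1 of the 9 genes (y axis); the dashed line is the median difference of all genes and dotted lines mark 2-fold. The 7 upper genes lie left of 0 in the 3 differences from DTrsp, and in G37H minus G37L the genes split, from Osgin1 at -1.32 to Ephx1 at 0.81.

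The 2 lines with the G37 transgene were compared through G37H minus G37L, 16 copies against 2. Each copy number is 1 line with 1 averaged column. Copy number therefore cannot be told apart from any other difference between these lines. The 9 genes had a median difference of -0.12, against -0.01 over all genes, and they did not move together. Osgin1 differed by -1.32 and Srxn1 by -1.02, and these 2 of 9 were at least 2-fold lower, where 2.67% of all genes were. Both stayed so less the median, against 2.62% of all genes, with Srxn1 at -1.01. The 3 Srxn1 probes differed by between -1.44 and -0.52. Ephx1 differed by 0.81 and Gclc by 0.68, with 0 of 9 at least 2-fold higher, where 4.07% of all genes were. The 2 tRNA changes were compared through A34 minus G37L, 2 copies each. They differ in both position and base, and each is 1 line here, so position, base and line cannot be told apart. Ephx1 differed by 1.34, from values of 0.52 in A34 and -0.81 in G37L, and Gclc by 1.16. These were the 2 of 9 at least 2-fold higher, where 7.07% of all genes were, and 0 were at least 2-fold lower, where 2.55% were. The median of this difference over all genes was 0.20. Less that median, Gclc differed by 0.97 and its call was lost, so that Ephx1, at 1.14, was the 1 gene called, against 4.06% of all genes. Gsr and Srxn1 differed the other way, by -0.48 and -0.46.

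The genes most alike in pattern were found by Euclidean distance over the 4 columns, a description over 4 points that share wild-type liver as denominator. Nearest to Gclc were the ammonium transporter Rhbg at 0.69, the glutathione transferase Gstm4 at 0.70 and the persulfide dioxygenase Ethe1 at 0.72, and Ephx1 was its sixth nearest of 9284 genes, at 0.80. Ephx1 was nearest to the cytochrome Cyp2a4 at 0.43, Ethe1 at 0.49 and Npr3 at 0.55. Gclm was nearest to Uba7 at 0.23, Cyp2a12 at 0.25 and Ces1e at 0.29. For Gsr the nearest were the riboflavin kinase gene Rfk at 0.32, Ubap1 at 0.44 and Gpd1 at 0.46. Nqo1 had Marchf5 at 0.17, Pigp at 0.18 and Mtmr6 at 0.22, and Srxn1 had Atp6v1b2 at 0.20, Ugt1a10 at 0.28 and Rexo2 at 0.30. The nearest to Osgin1 were Lpar6 at 0.65, the selenoprotein gene Sephs2 at 0.96 and Ppp2r5a at 1.12. None of these first 3 places was held by another of the 9 genes. The place of Ephx1 from Gclc was the closest that any of the 9 held. From Ephx1, Gclc held only place 30. The farthest was place 7717, held by Osgin1 from Nqo1.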

How the data were processed

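The deposited table holds 1 log ratio per probe and line. Per the labels' protocols, Trizol was used to extract total RNA, an oligo-dT primer to copy 15 µg of it, and the cDNA was coupled to Cy3 (wild type) or Cy5 (mutant), with littermates compared and 1 biological replicate on an array. The authors averaged the replicates of each line, per the labels, 4 in A34, G37L and DTrsp and 3 in G37H. For background correction, normalization and genome build, the sources used here name no method. The deposited values are taken as log2 ratios. The base is not stated, log10 would make the widest ratio a 78331-fold one, and a natural log cannot be told apart.

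Of 15478 probes, 12984 were named through the gene identifier matched to RefSeq GRCm38.p6, 63 by the annotation's own symbol, and 110 with several genes and 2321 not listed were left unnamed. Probes of a gene were averaged with pandas 2.3.3. How many arrays an average rests on was read from its decimals, with array values taken to have 4 decimals and a tolerance of 0.02 of that step. Values with a step divided by 3 made up 13.5% of probes in A34, 5.77% in G37L and 14.0% in DTrsp, and with a step divided by 2, 14.4% in G37H, so at least these averages rest on fewer arrays than labelled. Intervals need replicate values and are not given, and the number of arrays limits the precision. Scripts were tested on simulated data.

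No statistical test was run, since each line is 1 averaged column. The 9 genes and the gene lists were chosen with earlier results of these data known. Named genes are the 9, up to 4 genes per list with the largest absolute value in the comparison described, Gss, Cul3, Mafg, Bach1, Hmox1 and Txnrd1, and the 3 nearest genes in pattern to each of the 9 with a value of 1 or more. Other genes named, such as Nqo2, Ephx2, Prdx1, Cbs and Csad, were chosen after their values were seen. Alternatives were other fold thresholds, centrings, ways to join probes, a scaling and the base of the logarithm.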

Additional observations from a re-analysis of the deposited data

How the results depend on the processing

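The median differences between lines over the 9 genes kept their sign under every alternative run. Shares of all genes under the same setting stand in parentheses. In A34, genes at least 2-fold higher numbered 1 as reported (1.4%), 0 after centring on hepatocyte and housekeeping genes (0.409%), 2 at 1.5-fold (7.6%) and 0 at 3-fold (0.237%). The A34 median turned to -0.058 after that centring and to -0.089 with the probe nearest to 0. In G37H, genes lower numbered 0 as reported (3.1%), 1 after that centring (7.6%), 1 with the probe farthest from 0 (4.58%), 1 read as natural logs (8.91%) and 2 at 1.5-fold (13.1%). In G37L, genes higher numbered 0 as reported (2.51%) and 1 at 1.5-fold (7.45%), and genes lower numbered 0 as reported (3.96%), 2 after that centring (12.9%), 2 read as natural logs (11.1%) and 3 at 1.5-fold (15.3%). The G37L median turned to 0.023 after centring on column medians. In DTrsp, 7 genes were higher as reported (3.27%), 4 after centring on hepatocyte and housekeeping genes (0.679%) and 4 at 3-fold (0.657%). The DTrsp median moved to 0.72 after that centring and to 1.85 read as natural logs, and the median of G37H minus DTrsp to -2.34 read as natural logs. Of A34 minus G37L, 2 genes were at least 2-fold higher as reported (7.07%) and 1 less the median difference of all genes (4.06%), an alternative chosen after seeing the data. Why single values moved under an alternative was not tested. Of 36 values of a gene in a line, the sign turned in 3 after centring on column medians, in 7 after centring on hepatocyte and housekeeping genes and in 4 with the probe nearest to 0, none of them 2-fold or more as reported. Centring on column medians also moved the balance of all genes called higher and lower, to 1.14% and 0.614% in A34, 3.68% and 1.96% in G37H, 3.24% and 2.72% in G37L, and 1.85% and 2.79% in DTrsp. Leaving out an animal was not run, because the values of single animals were not used here, and no signal over background was used. A change under about the probe spread of 0.35 to 0.49 cannot be set apart from differences between probes. That spread is between probes of a gene within a line, not between animals, so larger changes have no replicate check either.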
